A study of Danio rerio with 12 samples.

Results

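The vacuolar H+-ATPase (V-ATPase) is the rotary pump that moves protons across the membranes of lysosomes, endosomes and secretory vesicles. Its genes were taken here as the protein-coding rows whose gene name begins with ATP6V0, ATP6V1 or ATP6AP, in capital or small letters. This rule found 27 genes among 35004 in the table: 9 for the membrane sector V0, 13 for the cytosolic sector V1 and 5 for accessory proteins. Many appear as pairs of zebrafish gene copies, written a and b. No measured value entered the rule.

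V1 hydrolyses ATP and turns a central shaft, and V0 holds the ring of proteolipid subunits through which protons pass as the shaft turns. In yeast and mammals the sectors can come apart, which stops the pump. The acid it makes is needed by lysosomal enzymes, and in fish larvae the pump also sits in skin ionocytes that secrete acid. On lysosomes it works next to the Ragulator and Rag proteins that bring the kinase mTORC1 to the membrane when amino acids are present. Gcn2, the product of eif2ak4, is a kinase of the other main amino acid response, in which it phosphorylates the translation factor eIF2.

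Whole zebrafish larvae, 3 days after fertilization, gave 12 libraries of polyadenylated RNA in 4 groups of 3, called biological replicates in the labels. The groups were gcn2 knockout larvae in hypoxia, wild-type larvae in hypoxia, gcn2 knockout larvae in normoxia and wild-type larvae in normoxia, each kept so for 8 hours. The knockout allele, the oxygen level and the number of larvae in a library are not given in the sources used here. Because whole larvae were sequenced, fewer cells of a type and less RNA per cell cannot be told apart in any value below.

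Reads recovered from the table numbered 15668848 to 16841145 per library. The values are FPKM, fragments per kilobase of gene length, scaled for library size, so levels of different genes can be compared. The label checks went with the labels: eif2ak4 had 1.52 to 1.95 FPKM in the 6 knockout libraries and 3.63 to 4.25 FPKM in the 6 wild-type libraries. The hypoxia-responsive prolyl hydroxylase gene egln3 had 42.5 to 47.5 FPKM in knockout hypoxia, 30.3 to 32.5 FPKM in wild-type hypoxia, 2.25 to 2.71 FPKM in knockout normoxia and 1.85, 1.93 and 1.96 FPKM in wild-type normoxia. Changes below are differences of group means of log2(FPKM + 1) ± SE with 3 libraries in each group, tested by limma over 21480 genes, with a Benjamini-Hochberg adjusted p under 0.05 as the call. "Rose" and "fell" are used for called genes alone. The 4 comparisons share groups of libraries with each other, so their results are not independent.

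Of the 27 genes, 26 passed the filter of FPKM of at least 1 in at least 3 libraries. The exception was atp6v1c2, a second form of subunit C, with 4 to 12 reads and 0.125 to 0.408 FPKM per library. Averaged over the 12 libraries, the proteolipid gene atp6v0cb was highest at 230.3 FPKM, followed by the peripheral stalk genes atp6v1g1 at 167 and, after atp6v0ca at 160.3, atp6v1e1b at 118 FPKM. The lowest tested genes were atp6ap1la at 4.44, atp6v0e1 at 4.63, atp6v0a2b at 4.64 and atp6v0a2a at 5.40 FPKM. Summed by subunit over the 12 libraries, the c subunit averaged 391 FPKM. The 4 genes for a1 and a2 averaged 68.5 FPKM in sum, and d averaged 63.5 FPKM. Genes for a3 fall outside the naming rule and are not in that sum. In the head, A averaged 98.7 FPKM and B averaged 134 FPKM. Proteolipid c is the subunit present in many copies in the ring. The d and a subunits are single in each pump.

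**Figure D1:**
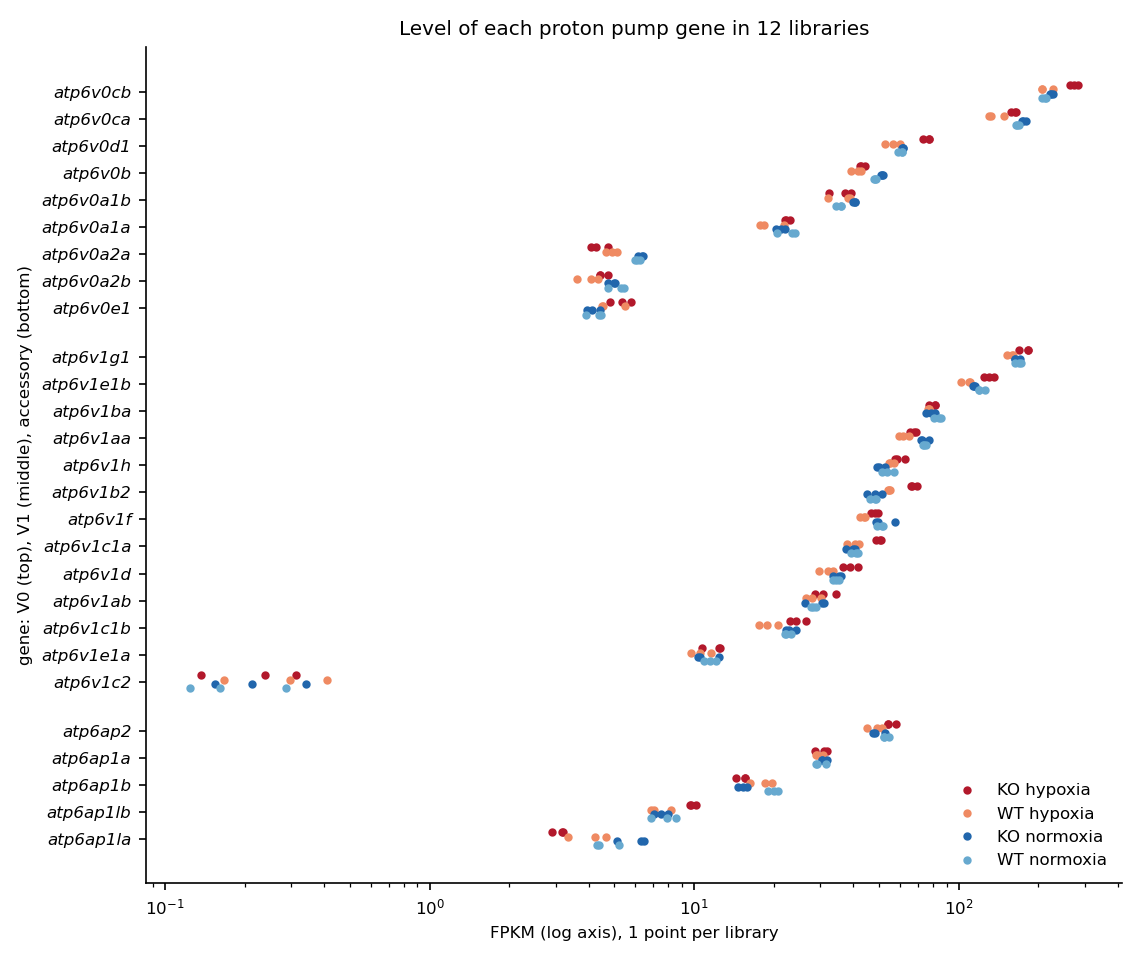
FPKM (log axis) of each proton pump gene in each of the 12 libraries, V0 genes at the top, V1 genes in the middle and accessory genes at the bottom, coloured by group. Levels ran from under 0.5 FPKM for atp6v1c2 to over 200 FPKM for atp6v0cb, with all 4 groups of a gene close together on this axis.

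In hypoxia, V-ATPase genes called between the genotypes were mostly higher in knockout larvae than in wild-type larvae. Of 26 tested genes 12 rose and 1 fell, where 17.0% and 16.2% of all 21480 genes tested were called higher and lower. The V0 sector had 4 higher and 0 lower of 9, the V1 sector 6 higher and 0 lower of 12, and the accessory genes 2 higher and 1 lower of 5. All 12 tested V1 genes had estimates above 0, from 0.05 to 0.36 in log2, as had 49.7% of all genes, and 11 of the 12 with TPM scaling or quantile normalization. The median log2 change was 0.15 over the 26 genes and -0.002 over all genes. The largest rises were those of atp6v0d1 (0.43 ± 0.05, adjusted p = 6.18e-05), atp6v0cb (0.36 ± 0.05, adjusted p = 0.000148), the accessory gene atp6ap1lb (0.38 ± 0.08, adjusted p = 0.00359) and the V1 gene atp6v1c1b (0.36 ± 0.07, adjusted p = 0.00185). The gene that fell was atp6ap1b, and without knockout hypoxia library 3 or wild-type hypoxia library 1 its change was -0.20 or -0.18, with adjusted p = 0.0657 or 0.0679. With the values rescaled to TPM the counts were 9 higher and 2 lower, where 13.1% and 19.7% of all genes were called higher and lower. With quantile normalization the calls of atp6v0ca, atp6v0a1a, atp6v1g1 and atp6ap2 as higher were lost. There 15.8% and 18.0% of all genes were called higher and lower. With TPM scaling all 12 V1 genes were above the median of all genes, -0.05. With quantile normalization 11 were above that median, -0.017.

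In normoxia the genotypes differed in a single V-ATPase gene. Of 26 genes 0 rose and 1 fell, where 7.63% and 9.11% of all genes were called higher and lower. The gene that fell was again atp6ap1b (-0.37 ± 0.07, adjusted p = 0.00386). At an unadjusted p under 0.05, limma gave 2 higher and 1 lower. The share of all genes under that unadjusted threshold is not given here, so these counts have nothing to be set against. By adjusted p, voom on the recovered reads also called 0 higher. With TPM, quantile normalization, scaling to total reads or the compared groups alone 1 was called higher, and with array weights 2. Of all genes 9.96%, 7.84% and 9.98% were called higher with TPM, quantile normalization and scaling to total reads. With the compared groups alone 2107 of 21480 genes were called higher, with array weights 2504 and with voom 2141. The median log2 change was 0.004 over the 26 genes and -0.011 over all genes.

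In wild-type larvae, nearly all V-ATPase genes called between hypoxia and normoxia were lower in hypoxia. Of 26 genes 1 rose and 9 fell, where 16.8% and 19.2% of all genes were called higher and lower. The genes that fell were 5 of 9 in V0 and 4 of 12 in V1, and none of the 5 accessory genes was called (0 at an unadjusted p under 0.05, for which the share of all genes is not given here). The largest falls were those of atp6v0a2b (-0.30 ± 0.07, adjusted p = 0.00727) and atp6v0ca (-0.28 ± 0.05, adjusted p = 0.000975). The gene that rose was atp6v1b2. The median log2 change was -0.11 over the 26 genes and 0.008 over all genes. Scaled to total reads, the counts were 0 higher and 15 lower, where 12.5% and 24.2% of all genes were called higher and lower.

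In knockout larvae, hypoxia went with both rises and falls. Of 26 genes 9 rose and 4 fell, where 21.8% and 22.2% of all genes were called higher and lower. In V0 3 rose and 2 fell, in V1 4 rose and 1 fell, and among accessory genes 2 rose and 1 fell. The median log2 change was 0.09 over the 26 genes and 0.00 over all genes. These counts turned on the scaling: with TPM they were 3 higher and 10 lower, with scaling to total reads 5 higher and 8 lower, and with quantile normalization 6 higher and 9 lower. The shares of all genes called higher and lower were 12.95% and 33.7% with TPM and 14.1% and 32.4% scaled to total reads. With quantile normalization those shares were 21.1% and 22.9%. TPM scaling moved the median of all genes to -0.12, and that of the 26 V-ATPase genes to -0.06, which was 0.06 above it. In the deposited values the distance was 0.09, and with quantile normalization it was 0.004, with 13 of the 26 genes above the median of all genes. The 6 calls that held under all alternatives were those of atp6v0d1, atp6v1b2 and atp6v1c1a, which rose, and of atp6v0b, atp6v0a2a and atp6ap1la, which fell.

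**Figure D2:**
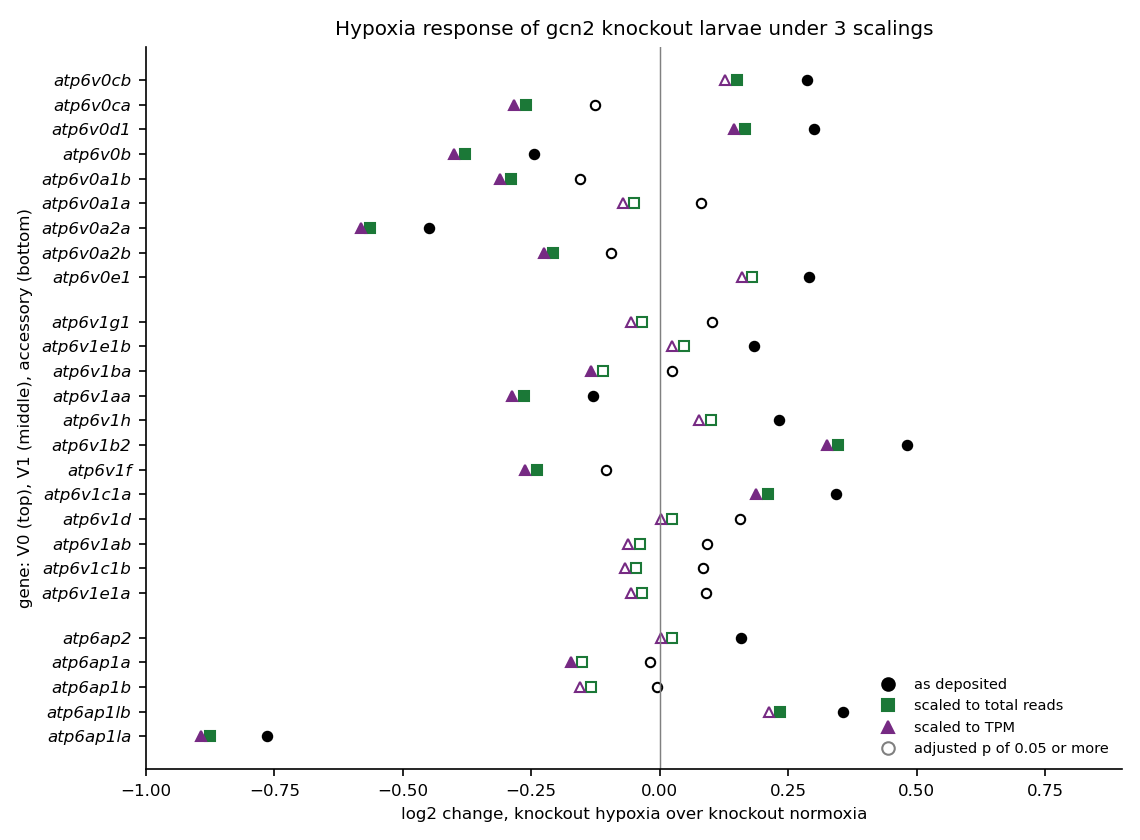
Log2 change of the 26 tested genes in knockout larvae, hypoxia over normoxia, with the values as deposited, scaled to total reads or scaled to TPM. Filled points have an adjusted p under 0.05. The rescaled values lie to the left of the deposited ones in all 26 genes, and atp6v1b2, atp6v1c1a and atp6v0d1 stay above 0 and filled in the 3 scalings.

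**Figure D3:**
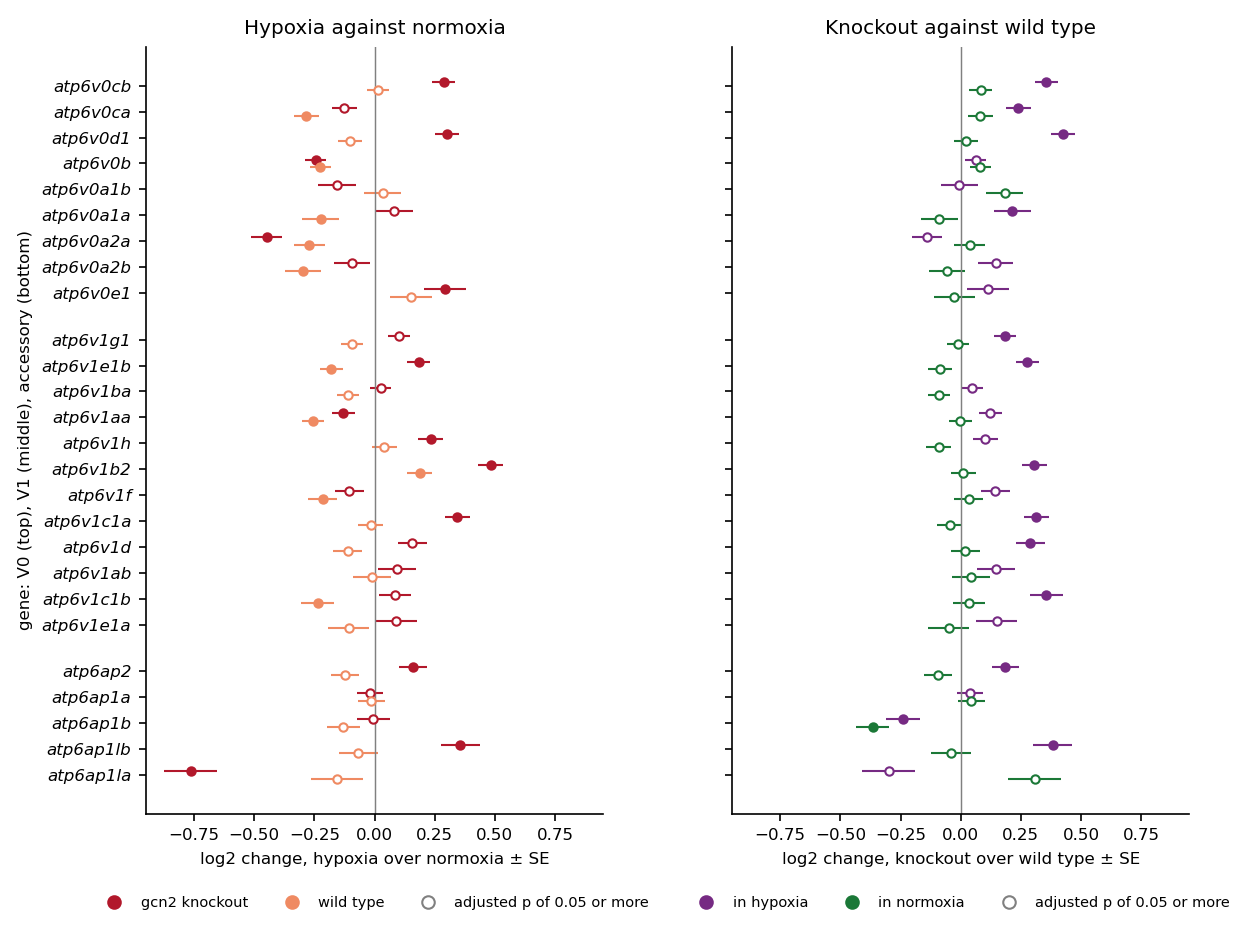
Log2 change ± SE of the 26 tested genes, with hypoxia against normoxia in each genotype on the left and knockout against wild type in each oxygen condition on the right (3 libraries per group). Filled points have an adjusted p under 0.05. All 12 V1 genes lie above 0 for knockout against wild type in hypoxia in the deposited values (11 with TPM scaling or quantile normalization), and a single gene, atp6ap1b, is filled in normoxia.

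The test of the difference itself, the response to hypoxia in knockout larvae minus that in wild-type larvae, called 6 of the 26 genes above 0 and 1 below, where 4.74% and 4.5% of all genes were called. All 12 V1 genes had estimates above 0, from 0.10 to 0.36, in the deposited values, against 9 of 12 with TPM scaling and 8 of 12 with quantile normalization. Of all genes 54.5% were above 0 in the deposited values, with a median of 0.028. With TPM scaling the median of all genes was -0.074, and all 12 V1 genes were above it. With quantile normalization that median was 0.013, and 7 of 12 V1 genes were above it. The called V1 genes were atp6v1e1b (0.36 ± 0.07, adjusted p = 0.0146), atp6v1c1a (0.36 ± 0.07, adjusted p = 0.0175) and atp6v1b2 (0.30 ± 0.07, adjusted p = 0.0275). In V0 they were atp6v0d1 (0.40 ± 0.07, adjusted p = 0.0119) and atp6v0cb (0.27 ± 0.07, adjusted p = 0.0287). The accessory gene atp6ap1lb was above 0 (0.42 ± 0.12, adjusted p = 0.0405) and atp6ap1la below (-0.61 ± 0.16, adjusted p = 0.0322). Leaving out 1 library at a time gave 3 to 10 genes above 0: 3 without knockout hypoxia library 1, wild-type hypoxia library 2, knockout normoxia library 1 or 3, or wild-type normoxia library 1, and 10 without wild-type hypoxia library 3. Over all genes, 1019 of 21480 were called above 0 with all 12 libraries. In the settings that gave 3 this number was 282 to 554 of 21338 to 21396 genes. Without wild-type hypoxia library 3 it was 1178 of 21369. The calls of atp6v0d1, atp6v1c1a and atp6v1e1b held without each library in turn. With quantile normalization 0 were called above 0, and with TPM 2, where 3.06% and 1.98% of all genes were called above 0.

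The c and c'' subunits form the proton-carrying ring. The 2 genes for c are atp6v0cb (ENSDARG00000036577, chromosome 24, 39158283 to 39175750, plus strand, GRCz11 as are all coordinates here) and atp6v0ca (ENSDARG00000057853, chromosome 3, 16044680 to 16055463, minus strand). The first had 282, 264 and 274 FPKM in knockout hypoxia and 206, 207 and 227 FPKM in wild-type hypoxia, against 221, 227 and 223 FPKM in knockout normoxia and 214, 207 and 212 FPKM in wild-type normoxia. The 3 knockout hypoxia libraries stood above the other 9, and the knockout normoxia libraries above the wild-type normoxia libraries. It rose with hypoxia in knockout larvae (0.29 ± 0.05, adjusted p = 0.00038), while in wild-type larvae the change was 0.01 ± 0.05, adjusted p = 0.847. The knockout change was 0.13 with TPM scaling (adjusted p = 0.0650) and 0.07 with quantile normalization (adjusted p = 0.297). The copy atp6v0ca went another way, with 164, 158 and 163 FPKM in knockout hypoxia and 129.7, 133 and 148 FPKM in wild-type hypoxia, against 173, 179.9 and 176 FPKM in knockout normoxia and 164, 169 and 167 FPKM in wild-type normoxia. The wild-type hypoxia libraries were the lowest and the knockout normoxia libraries the highest. It fell with hypoxia in wild-type larvae, and in hypoxia it was higher in knockout larvae (0.24 ± 0.05, adjusted p = 0.0037), a difference of 0.10 with quantile normalization (adjusted p = 0.256). The change in knockout larvae was -0.13 ± 0.05, adjusted p = 0.0651. The groups did not overlap there, and 7 of 24 alternatives called the change lower. Its value ran from -0.34 to -0.11 over these 24.

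The c'' gene atp6v0b (ENSDARG00000031681, chromosome 2, 33681199 to 33687214, minus strand) was lower in all 6 hypoxia libraries than in all 6 normoxia libraries. It had 42.4, 44.3 and 42.6 FPKM in knockout hypoxia and 39.3, 42.7 and 41.7 FPKM in wild-type hypoxia, against 51.2, 51.8 and 50.7 FPKM in knockout normoxia and 48.9, 48.0 and 48.1 FPKM in wild-type normoxia. It fell in knockout larvae (-0.25 ± 0.04, adjusted p = 0.000708) and in wild-type larvae (-0.23 ± 0.04, adjusted p = 0.00163). In knockout larvae atp6v0cb and atp6v0b were thus called in opposite directions.

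Subunit d joins the ring to the central shaft. Its gene atp6v0d1 (ENSDARG00000069090, chromosome 7, 35086369 to 35094933, plus strand) had 77.2, 77.0 and 73.4 FPKM in knockout hypoxia and 56.4, 52.6 and 59.9 FPKM in wild-type hypoxia, against 61.0, 61.6 and 61.4 FPKM in knockout normoxia and 61.3, 59.0 and 61.1 FPKM in wild-type normoxia. The knockout hypoxia libraries were above the rest, and the wild-type hypoxia libraries reached into the normoxia range. It rose with hypoxia in knockout larvae (0.30 ± 0.05, adjusted p = 0.000398), and in wild-type larvae the change was -0.10 ± 0.05, adjusted p = 0.133.

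The a subunits hold the channels by which protons reach and leave the ring, and in mammals their forms send pumps to different membranes. The a2 gene atp6v0a2a (ENSDARG00000035538, chromosome 10, 7988746 to 8033468, minus strand) had 4.08, 4.24 and 4.72 FPKM in knockout hypoxia and 4.64, 5.10 and 4.91 FPKM in wild-type hypoxia, against 6.39, 6.33 and 6.13 FPKM in knockout normoxia and 5.97, 6.07 and 6.24 FPKM in wild-type normoxia. Each hypoxia library was below each normoxia library. It fell in knockout larvae (-0.45 ± 0.06, adjusted p = 0.000123) and in wild-type larvae (-0.27 ± 0.06, adjusted p = 0.00547). The other a2 gene, atp6v0a2b (ENSDARG00000035565, chromosome 5, 24543862 to 24567869, plus strand), had 4.42, 4.73 and 4.43 FPKM in knockout hypoxia and 4.09, 3.60 and 4.33 FPKM in wild-type hypoxia, against 5.01, 4.97 and 4.71 FPKM in knockout normoxia and 5.30, 4.73 and 5.42 FPKM in wild-type normoxia. It fell in wild-type larvae, where hypoxia and normoxia libraries did not overlap, and its change in knockout larvae was not called (-0.09 ± 0.07, adjusted p = 0.329).

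The a1 genes, atp6v0a1a and atp6v0a1b, are the forms best known from neurons in mammals. In all libraries atp6v0a1a had 17.7 to 24.0 FPKM and atp6v0a1b 32.1 to 40.7 FPKM. The first fell with hypoxia in wild-type larvae (-0.22 ± 0.08, adjusted p = 0.0386) and was higher in knockout than in wild-type hypoxia (0.21 ± 0.08, adjusted p = 0.0487). The fall was not called without wild-type hypoxia library 1 or 2, wild-type normoxia library 1 or 3, or knockout normoxia library 3, with adjusted p from 0.0512 to 0.142. The genotype call was lost without any of 10 libraries, all but wild-type hypoxia library 3 and wild-type normoxia library 2, with adjusted p from 0.0520 to 0.182. It was also lost with TPM scaling, quantile normalization, scaling to total reads, array weights, no filter or the compared groups alone (adjusted p from 0.0656 to 0.177), and the fall with quantile normalization, no filter or the compared groups alone (adjusted p from 0.0582 to 0.105). In atp6v0a1b no comparison was called. Its row overlaps that of the caveola gene CAVIN1 on the other strand by 391 bases, and whether the counting used strand is not given in the sources used here.

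The small membrane subunit e1 is listed as atp6v0e1 (ENSDARG00000101794, chromosome 14, 52565660 to 52576034, plus strand). It had 5.77, 4.80 and 5.34 FPKM in knockout hypoxia and 5.49, 4.48 and 4.53 FPKM in wild-type hypoxia, against 4.41, 4.1 and 3.92 FPKM in knockout normoxia and 3.90, 4.45 and 4.37 FPKM in wild-type normoxia. It rose in knockout larvae (0.29 ± 0.09, adjusted p = 0.0161), where the groups did not overlap, and without knockout hypoxia library 1 or knockout normoxia library 3 it was not called (adjusted p = 0.0671 and 0.0604). With TPM scaling the rise was 0.16 (adjusted p = 0.12) and scaled to total reads 0.18 (adjusted p = 0.0916). This row shares 2712 bases on the same strand with the ribosomal protein gene RPL26, listed at 0 to 0.216 FPKM, and the protein match in its description is ribosomal protein L26. Its value is therefore uncertain as a measure of subunit e1.

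**Figure D4:**
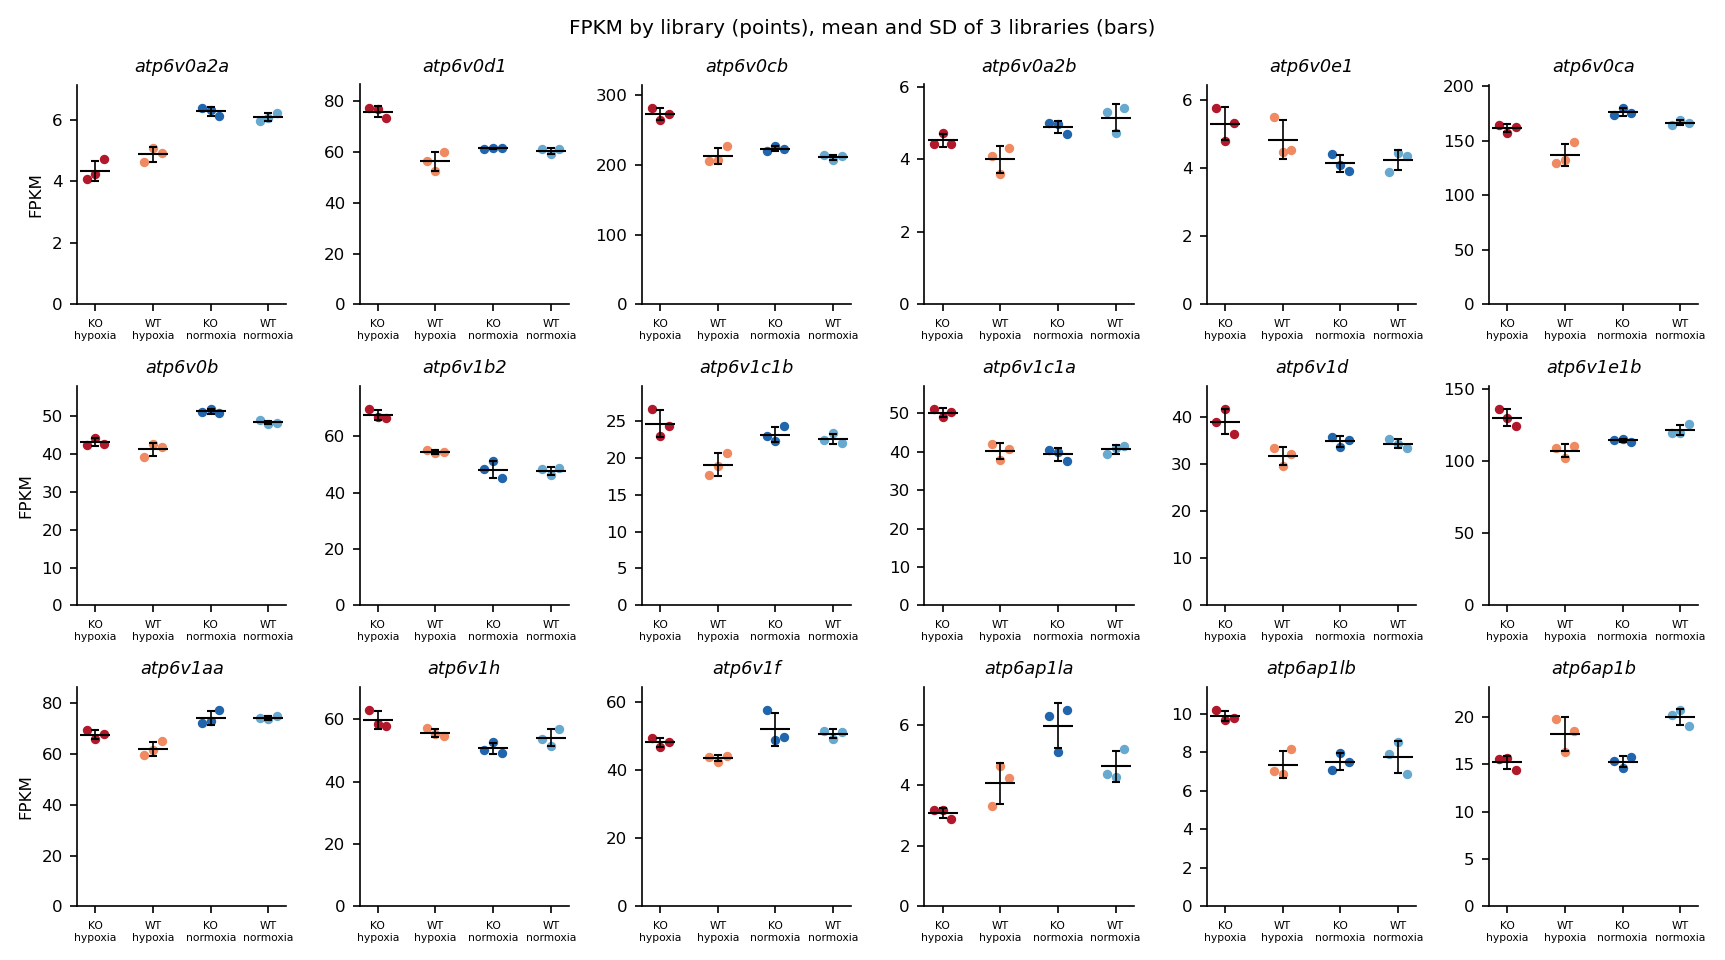
FPKM of 18 proton pump genes in each library (points), with the mean and SD of 3 libraries as bars and the axes from 0. The columns of each panel are knockout hypoxia, wild-type hypoxia, knockout normoxia and wild-type normoxia, and in atp6v0cb, atp6v0d1, atp6v1b2 and atp6v1c1a the 3 knockout hypoxia libraries stand above the other 9.

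In the V1 head, A holds the catalytic sites and B the partner nucleotide sites. The A gene atp6v1aa (ENSDARG00000034534, chromosome 5, 24245682 to 24259992, plus strand) had 69.3, 65.7 and 67.9 FPKM in knockout hypoxia and 59.4, 61.7 and 65.0 FPKM in wild-type hypoxia, against 72.2, 73.0 and 77.2 FPKM in knockout normoxia and 74.1, 73.5 and 75.0 FPKM in wild-type normoxia. Each hypoxia library was below each normoxia library. It fell in wild-type larvae (-0.26 ± 0.05, adjusted p = 0.00107) and in knockout larvae (-0.13 ± 0.05, adjusted p = 0.0392). The second call was lost without knockout hypoxia library 2 or 3, knockout normoxia library 2 or 3, or wild-type normoxia library 1 or 3 (adjusted p from 0.0518 to 0.156). The copy atp6v1ab, at 26.2 to 34.4 FPKM in the 12 libraries, was called in no comparison.

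The B gene atp6v1b2 (ENSDARG00000043465, chromosome 10, 19554604 to 19566474, plus strand) rose with hypoxia in both genotypes. It had 69.6, 66.9 and 66.3 FPKM in knockout hypoxia and 55.2, 53.8 and 54.4 FPKM in wild-type hypoxia, against 48.3, 51.1 and 45.1 FPKM in knockout normoxia and 48.2, 46.2 and 48.8 FPKM in wild-type normoxia. The knockout hypoxia libraries were the highest, the wild-type hypoxia libraries came next, and the 6 normoxia libraries overlapped below them. The change was 0.48 ± 0.05, adjusted p = 1.06e-05 in knockout larvae and 0.19 ± 0.05, adjusted p = 0.0117 in wild-type larvae, and scaled to total reads the wild-type change was 0.12 (adjusted p = 0.0722). In hypoxia it was higher in knockout larvae (0.31 ± 0.05, adjusted p = 0.0007). The other B gene, atp6v1ba, had 75.5 to 85.7 FPKM and was called in no comparison as deposited. With TPM scaling it fell with hypoxia by 0.13 in knockout larvae and by 0.14 in wild-type larvae, on the log2 scale.

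The stalk subunits E and G brace the head against the membrane sector. Of these, atp6v1e1b (ENSDARG00000030694, chromosome 4, 5240126 to 5247335, minus strand) was called in opposite directions in the genotypes. It had 136, 129.8 and 125 FPKM in knockout hypoxia and 109, 102 and 111 FPKM in wild-type hypoxia, against 115, 116 and 113 FPKM in knockout normoxia and 119.6, 119.5 and 126 FPKM in wild-type normoxia. Knockout hypoxia libraries lay above knockout normoxia libraries, and wild-type hypoxia libraries below wild-type normoxia libraries. The change was 0.18 ± 0.05, adjusted p = 0.00773 in knockout larvae and -0.18 ± 0.05, adjusted p = 0.0106 in wild-type larvae. The rise in knockout larvae was 0.03 with TPM (adjusted p = 0.669), 0.05 scaled to total reads (adjusted p = 0.391) and -0.009 with quantile normalization, while the fall in wild-type larvae held under all alternatives. The row touches that of ADA2 on the same strand by 3 bases. The copy atp6v1e1a had 9.74 to 12.5 FPKM with no call. The G gene atp6v1g1 had 152 to 184 FPKM and was higher in knockout than in wild-type hypoxia (0.18 ± 0.05, adjusted p = 0.00941). This was 0.02 with quantile normalization (adjusted p = 0.83) and 0.12 with TPM scaling (adjusted p = 0.0532), and with the compared groups alone the adjusted p was 0.0591.

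Subunit C links the stalks to the membrane sector and leaves the pump when the sectors separate. The gene atp6v1c1a (ENSDARG00000023967, chromosome 16, 52748263 to 52767591, plus strand) had 51.1, 48.9 and 50.4 FPKM in knockout hypoxia and 42.0, 37.9 and 40.6 FPKM in wild-type hypoxia, against 40.5, 40.0 and 37.5 FPKM in knockout normoxia and 39.3, 41.0 and 41.5 FPKM in wild-type normoxia. The 3 knockout hypoxia libraries were above the other 9, which overlapped. It rose with hypoxia in knockout larvae (0.34 ± 0.05, adjusted p = 0.000172), and the wild-type change was -0.02 ± 0.05, adjusted p = 0.836. Its copy atp6v1c1b (ENSDARG00000035880, chromosome 19, 32947910 to 32966762, plus strand) had 26.6, 23.0 and 24.3 FPKM in knockout hypoxia and 17.6, 18.8 and 20.7 FPKM in wild-type hypoxia, against 22.9, 22.2 and 24.3 FPKM in knockout normoxia and 22.3, 23.3 and 22.0 FPKM in wild-type normoxia. Here the 3 wild-type hypoxia libraries were below the other 9. It fell in wild-type larvae (-0.24 ± 0.07, adjusted p = 0.0164), and the call was lost without wild-type hypoxia library 1 or wild-type normoxia library 2 (adjusted p = 0.0627 and 0.058).

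The shaft is made of D and F, and H sits beside them and, in yeast, holds free V1 inactive. The D gene atp6v1d (ENSDARG00000011175, chromosome 20, 51088606 to 51100669, minus strand) had 38.9, 41.7 and 36.4 FPKM in knockout hypoxia and 33.5, 29.6 and 32.2 FPKM in wild-type hypoxia, against 35.8, 33.6 and 35.2 FPKM in knockout normoxia and 35.3, 34.4 and 33.4 FPKM in wild-type normoxia. In hypoxia it was higher in knockout larvae (0.29 ± 0.06, adjusted p = 0.00311), and neither oxygen comparison was called. The change with hypoxia was 0.16 ± 0.06, adjusted p = 0.05025 in knockout larvae and -0.11 ± 0.06, adjusted p = 0.168 in wild-type larvae. In knockout larvae the groups did not overlap, and 7 of 24 alternatives called the rise. Its value ran from 0.002 to 0.20 over these 24. The H gene atp6v1h (ENSDARG00000006370, chromosome 2, 30786773 to 30846927, plus strand) had 62.9, 58.6 and 57.7 FPKM in knockout hypoxia and 57.1, 55.1 and 54.5 FPKM in wild-type hypoxia, against 50.2, 52.6 and 49.1 FPKM in knockout normoxia and 53.6, 51.5 and 57.0 FPKM in wild-type normoxia. It rose with hypoxia in knockout larvae (0.23 ± 0.05, adjusted p = 0.0031), and this was 0.08 with TPM scaling (adjusted p = 0.178) and 0.10 scaled to total reads (adjusted p = 0.0877). The F gene atp6v1f (ENSDARG00000045543, chromosome 4, 20049260 to 20063234, minus strand) had 49.4, 46.7 and 48.2 FPKM in knockout hypoxia and 43.9, 42.4 and 44.2 FPKM in wild-type hypoxia, against 57.6, 48.8 and 49.6 FPKM in knockout normoxia and 51.6, 49.2 and 51.1 FPKM in wild-type normoxia. It fell in wild-type larvae (-0.22 ± 0.06, adjusted p = 0.0136), with no overlap of the groups. In knockout larvae its change was -0.105 ± 0.06, adjusted p = 0.176, called lower with TPM, quantile normalization or scaling to total reads. The atp6v1f row holds that of the Ragulator gene LAMTOR4 on the other strand, 3106 bases in common, with 15.8 to 26.3 FPKM. LAMTOR4 also fell, in wild-type larvae (-0.27 ± 0.09, adjusted p = 0.0298) and in knockout larvae (-0.24 ± 0.09, adjusted p = 0.0439). Whether its reads entered the value of atp6v1f was not tested. Rows that overlap those of atp6v0ca, atp6v0b, atp6v1aa and atp6v1d had at most 0.502 FPKM.

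The accessory proteins Ac45 (Ap1) and Ap2, the prorenin receptor, bind V0 from the lumen, and in mammals they help pumps assemble and reach their membranes. The Ac45-like copies atp6ap1la (ENSDARG00000091509, chromosome 11, 42532464 to 42554290, minus strand) and atp6ap1lb (ENSDARG00000090963, chromosome 23, 19558574 to 19583814, plus strand) were called in opposite directions in knockout larvae. The first had 3.18, 3.195 and 2.90 FPKM in knockout hypoxia and 3.33, 4.64 and 4.23 FPKM in wild-type hypoxia, against 6.31, 5.12 and 6.49 FPKM in knockout normoxia and 4.38, 4.29 and 5.22 FPKM in wild-type normoxia. It fell with hypoxia in knockout larvae (-0.76 ± 0.11, adjusted p = 0.000123), the largest change of any V-ATPase gene, on 74 to 186 reads per library. In wild-type larvae the groups overlapped (-0.16 ± 0.11, adjusted p = 0.289). The second had 10.2, 9.66 and 9.75 FPKM in knockout hypoxia and 7.03, 6.86 and 8.17 FPKM in wild-type hypoxia, against 7.06, 7.94 and 7.49 FPKM in knockout normoxia and 7.90, 8.51 and 6.87 FPKM in wild-type normoxia. Its knockout hypoxia libraries were above the other 9. It rose with hypoxia in knockout larvae (0.36 ± 0.08, adjusted p = 0.00353), and this change was 0.21 with TPM scaling (adjusted p = 0.0781).

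The Ac45 gene atp6ap1b (ENSDARG00000037153, chromosome 23, 26079467 to 26094178, plus strand) followed genotype. It had 15.6, 15.6 and 14.4 FPKM in knockout hypoxia and 19.7, 16.3 and 18.5 FPKM in wild-type hypoxia, against 15.4, 14.6 and 15.8 FPKM in knockout normoxia and 20.1, 20.7 and 19.0 FPKM in wild-type normoxia. Each knockout library was below each wild-type library. The change was -0.24 ± 0.07, adjusted p = 0.0183 in hypoxia and -0.37 ± 0.07, adjusted p = 0.00386 in normoxia, and the hypoxia call was lost without knockout hypoxia library 3 or wild-type hypoxia library 1 (adjusted p = 0.0657 and 0.0679) or with the compared groups alone (adjusted p = 0.0658). Its copy atp6ap1a had 28.6 to 31.8 FPKM in the 12 libraries and was called in no comparison. The Ap2 gene atp6ap2, at 45.2 to 57.8 FPKM, rose with hypoxia in knockout larvae (0.16 ± 0.06, adjusted p = 0.0408) and was higher in knockout than in wild-type hypoxia (0.19 ± 0.06, adjusted p = 0.0266). The first call was lost without any of 7 libraries (all 3 of knockout hypoxia, knockout normoxia 1 and 3, wild-type normoxia 1 and 3; adjusted p from 0.0523 to 0.144), and the second without knockout hypoxia library 1 or wild-type hypoxia library 2 (adjusted p = 0.0960 and 0.11). The rise with hypoxia was 0.003 with TPM scaling (adjusted p = 0.976), 0.03 scaled to total reads (adjusted p = 0.759) and 0.07 with quantile normalization (adjusted p = 0.378). The genotype difference was 0.13 with TPM scaling and 0.12 with quantile normalization (adjusted p = 0.133 and 0.135), and its call was lost with array weights or the compared groups alone (adjusted p = 0.0525 and 0.0777).

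The share that 1 copy takes of the summed FPKM of its pair is not altered by a single scaling factor per library, as in TPM or scaling to total reads. Quantile normalization is not of that kind, and the shares were not read under it. Shares of 9 pairs were set against oxygen and against genotype, 18 tests chosen after the values had been seen, by a two-sided exact permutation test within the levels of the other factor. The smallest p it can give is 0.005. Copies that are alike can share reads, so the shares are uncertain to that extent.

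With hypoxia the share of atp6v0cb in the c subunit pair was 63.2, 62.6 and 62.7% in knockout hypoxia and 61.4, 61.0 and 60.4% in wild-type hypoxia, against 56.0, 55.8 and 56.0% in knockout normoxia and 56.6, 55.1 and 56.0% in wild-type normoxia. The hypoxia and normoxia libraries did not overlap, and the mean difference was 5.97 percentage points (exact permutation p = 0.005, adjusted p = 0.015). In the B pair the share of atp6v1b2 was 46.2, 46.3 and 45.0% in knockout hypoxia and 41.6, 41.2 and 41.3% in wild-type hypoxia, against 38.1, 38.5 and 37.4% in knockout normoxia and 36.0, 36.4 and 36.7% in wild-type normoxia. It differed by 6.41 points with oxygen and by 3.06 points with genotype (exact permutation p = 0.005, adjusted p = 0.015 each), and the 4 groups did not overlap. In the A pair the share of atp6v1ab was higher in hypoxia by 3.42 points (exact permutation p = 0.005, adjusted p = 0.015). In the C pair that of atp6v1c1b differed by -3.86 points (exact permutation p = 0.005, adjusted p = 0.015).

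Genotype set apart the share of atp6ap1b in the Ac45 pair, which was 33.5, 35.4 and 31.2% in knockout hypoxia and 40.4, 36.0 and 37.6% in wild-type hypoxia, against 32.6, 32.5 and 34.3% in knockout normoxia and 41.1, 39.5 and 39.4% in wild-type normoxia. The mean difference was -5.79 points (exact permutation p = 0.005, adjusted p = 0.015). In the Ac45-like pair the share of atp6ap1lb was 76.2, 75.2 and 77.1% in knockout hypoxia and 67.9, 59.7 and 65.9% in wild-type hypoxia, against 52.8, 60.8 and 53.6% in knockout normoxia and 64.3, 66.5 and 56.8% in wild-type normoxia. Hypoxia minus normoxia was 20.4 points in knockout larvae and 1.95 points in wild-type larvae, and the mean, 11.2 points, missed the threshold after adjustment (exact permutation p = 0.03, adjusted p = 0.0771). It was 0.05 without wild-type hypoxia library 1 and 0.06 without wild-type normoxia library 3, as unadjusted exact p. The other 11 tests gave exact permutation p from 0.05 to 0.955.

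**Figure D5:**
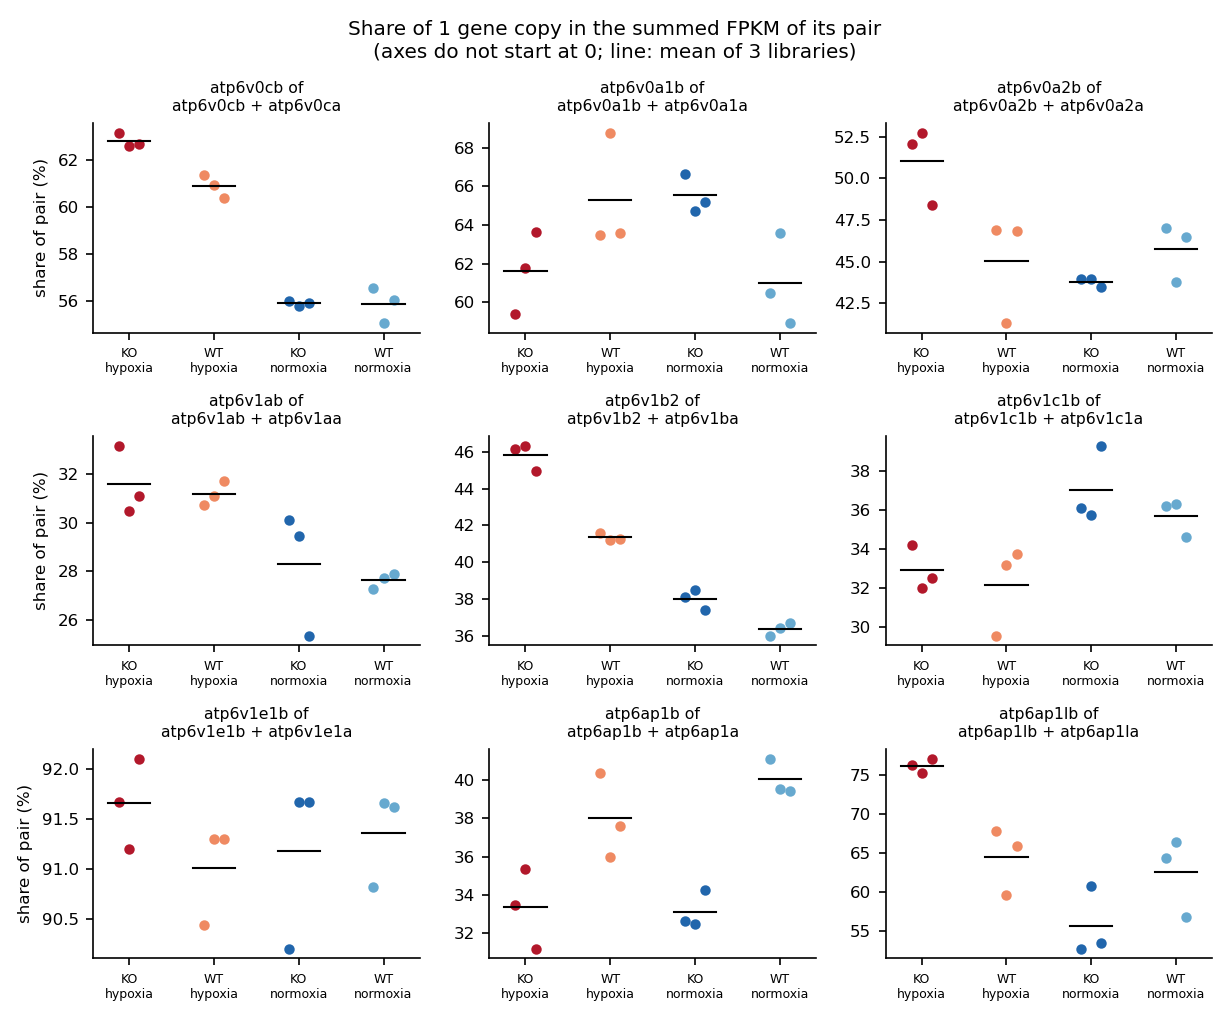
Share of 1 copy in the summed FPKM of its pair, in percent, for 9 pairs in each library, with the mean of 3 libraries as a line and axes that do not start at 0. The shares of atp6v0cb and atp6v1b2 are higher in all 6 hypoxia libraries than in all 6 normoxia libraries, and that of atp6ap1b is lower in all 6 knockout libraries than in all 6 wild-type libraries.

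Subunits that the naming rule leaves out were read alongside. The a3 gene tcirg1b had 6.64, 6.42 and 6.37 FPKM in knockout hypoxia and 9.62, 7.83 and 7.79 FPKM in wild-type hypoxia, and was lower in knockout larvae (-0.33 ± 0.08, adjusted p = 0.00985). In normoxia its difference was -0.26 ± 0.08 (adjusted p = 0.0474). The other a3 gene, tcirg1a, rose with hypoxia in knockout larvae (0.31 ± 0.11, adjusted p = 0.0347), although the groups overlapped. The e2 gene, listed as atpv0e2, had 42.3 to 47.3 FPKM in knockout hypoxia and 33.9 to 41.9 FPKM in wild-type hypoxia (0.23 ± 0.08, adjusted p = 0.0417).

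Of the 13 V-ATPase assembly genes listed, 12 were matched and 11 tested. For this and the lists that follow, the shares of all genes called higher and lower were 21.8% and 22.2% for hypoxia in knockout larvae, 16.8% and 19.2% for hypoxia in wild-type larvae, and 17.0% and 16.2% for knockout against wild type in hypoxia. The list and marker counts come from the deposited values, and no other scaling was read for them. For hypoxia in knockout larvae, TPM scaling moved the shares of all genes to 12.95% and 33.7%. Of the 11 assembly genes, 3 rose and 3 fell with hypoxia in knockout larvae, and 2 rose and 0 fell in wild-type larvae. In knockout against wild-type hypoxia 1 was higher, rogdi, and 2 were lower, ncoa7a and ncoa7b. The assembly gene wdr7, which with Dmxl proteins brings V1 and V0 together, fell in knockout larvae (-0.59 ± 0.14, adjusted p = 0.0043) and differed in its response (-0.80 ± 0.20, adjusted p = 0.0291). In normoxia wdr7 was higher in knockout than in wild-type larvae (0.48 ± 0.14, adjusted p = 0.03455). The listed gene ncoa7b rose in knockout larvae (0.42 ± 0.07, adjusted p = 0.000228) and in wild-type larvae (0.49 ± 0.07, adjusted p = 8.89e-05). Of 17 Ragulator, Rag and mTORC1 genes tested, 3 rose and 4 fell in knockout hypoxia and 3 rose and 5 fell in wild-type hypoxia. Between the genotypes in hypoxia 1 was higher and 2 were lower in knockout larvae, with a median log2 change of -0.017. The folliculin gene flcn rose in knockout larvae (0.54 ± 0.07, adjusted p = 7.35e-05) and in wild-type larvae (0.55 ± 0.07, adjusted p = 8.82e-05). Of 6 genes for MiT/TFE factors, the regulators of lysosomal genes, 0 rose and 1 fell in knockout hypoxia and 1 rose and 0 fell in wild-type hypoxia. The gene that fell was mitfa, which is also on the pigment cell list below, and the gene that rose was tfe3a. In knockout against wild-type hypoxia 0 were higher and 1 was lower, again mitfa.

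Of 42 lysosomal hydrolase genes tested, 13 were higher and 2 lower in knockout than in wild-type hypoxia (17.0% and 16.2% of all genes), with a median log2 change of 0.12. With hypoxia 14 rose and 8 fell in knockout larvae, and 9 rose and 11 fell in wild-type larvae. The cathepsin gene ctsla rose by 1.22 ± 0.06 in knockout larvae and by 0.90 ± 0.06 in wild-type larvae. The legumain gene lgmn was higher in knockout than in wild-type hypoxia (1.02 ± 0.06, adjusted p = 1.74e-07). It was higher in knockout larvae in normoxia too (0.54 ± 0.06, adjusted p = 3.81e-05). Of 27 genes for lysosomal membrane proteins and channels, 6 were higher and 5 lower in knockout than in wild-type hypoxia. The lysosomal membrane gene laptm4b was higher (0.90 ± 0.07, adjusted p = 2.09e-06) and the calcium channel gene mcoln1b lower (-0.65 ± 0.08, adjusted p = 5.49e-05).

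The mitochondrial F-type ATP synthase, the related rotary enzyme that makes ATP, was read for comparison. Of 20 genes tested, 14 were higher and 0 lower in knockout than in wild-type hypoxia (median 0.24, against 0.15 for the V-ATPase genes). In wild-type hypoxia 0 rose and 15 fell (median -0.38), and in knockout hypoxia 2 rose and 3 fell (median -0.09).

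Some markers of cells rich in the pump, or in lysosomes, differed between genotypes in hypoxia, where 17.0% and 16.2% of all genes were called higher and lower. Several of these lists differed between genotypes in normoxia too. The part of these markers in the V-ATPase result was not tested. Genotype counts below are for hypoxia unless normoxia is named. Of 9 ionocyte markers 3 were higher and 1 lower, with a summed level of 90.1 to 98.9 FPKM in knockout hypoxia and 68.8 to 82.6 FPKM in wild-type hypoxia. The ammonia channel gene rhcgb was among them (1.19 ± 0.11, adjusted p = 8.68e-06), while the ionocyte transcription factor genes foxi3a (0.24 ± 0.09, adjusted p = 0.0541) and foxi3b (0.08 ± 0.07, adjusted p = 0.350) were not called. Of 9 macrophage markers tested 2 were higher and 0 lower, apoeb and slc7a7. The 11 matched genes of this list summed to 678 to 751 FPKM in knockout hypoxia and 346 to 401 FPKM in wild-type hypoxia. Of these sums apoeb alone, a gene of other tissues too, gave 634 to 703 FPKM and 306 to 361 FPKM. The receptor gene csf1ra, which marks macrophages and some pigment cells, had 10.3 to 11.8 FPKM and 10.3 to 11.4 FPKM in those groups, while mpeg1.1 and mfap4.1 were not matched. In normoxia the macrophage list summed to 407 to 442 FPKM in knockout larvae and 264 to 322 FPKM in wild-type larvae.

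Of 7 markers of lysosome-rich enterocytes tested 4 were higher and 1 lower. The 9 matched genes of this list summed to 118 to 133 FPKM in knockout hypoxia and 71.7 to 79.4 FPKM in wild-type hypoxia. That list shares lgmn, hexb and ctsl.1 with the hydrolases, with which the osteoclast list shares ctsk and acp5a. The pigment cell list shares mitfa with the MiT/TFE factors. Of 6 osteoclast and bone markers 2 were higher and 0 lower, of 10 pronephros markers 3 were higher and 2 lower, and of 16 neuron markers 2 were higher and 4 lower. Of 14 pigment cell markers 0 were higher and 8 lower, and of 12 proliferation markers 0 were higher and 12 lower. In normoxia 7.63% and 9.11% of all genes were called higher and lower. There 8 of 14 pigment cell and 7 of 12 proliferation markers were lower and 0 higher. Higher were 4 of 10 pronephros, 4 of 16 neuron, 2 of 7 enterocyte, 2 of 9 macrophage and 1 of 9 ionocyte markers. In each of these lists 0 were lower. Enterocyte markers summed to 123.3 to 131.5 FPKM in knockout normoxia and 79.5 to 96.5 FPKM in wild-type normoxia. For hypoxia against normoxia, 1 neuron marker rose and 7 fell in knockout larvae and 5 rose and 0 fell in wild-type larvae, and the responses differed below 0 in 8 of 16. All 12 proliferation markers fell with hypoxia in both genotypes. Of these marker lists none had a matched gene at 0 in all libraries. Among the assembly genes meak7 was listed at 0 in all 12.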

How the data were processed

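FPKM values for 35004 genes in 12 libraries of whole zebrafish larvae were used as the authors deposited them. Reads were trimmed with fastp, aligned with HISAT2 2.2.1 to GRCz11 and counted with featureCounts 2.0.6, going by the tool names in the submitters' processing notes. The annotation release, strand setting and scaling total are not given in the sources used here. Times gene length, the deposited values of a library were multiples of a single step (100% within 0.05 of a read), which gave the reads, 15668848 to 16841145 per library. The deposited FPKM values matched a median-of-ratios scaling, not total reads.

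The 21480 genes that reached an FPKM of 1 in 3 or more libraries were tested on log2(FPKM + 1) with limma 3.58.1 in R 4.3.3 (4 group means, eBayes with trend), with Benjamini-Hochberg adjustment over all of them and a threshold of 0.05. Figures and tables used Python 3.11.15, pandas 2.3.3 and matplotlib 3.10.9. Paralog shares were tested by exact permutation over libraries, as an addition after the values were seen. Alternatives were other pseudocounts, filters and scalings, voom on recovered reads, array weights, the compared groups alone, a replicate block and leaving out each library. Scaling to total reads was added after seeing the data.

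Members called in at least 1 test were described with values in each library, by sector and size of change, up to a set number per sector, and the rest by range. The members and gene lists were chosen with earlier results of these data known. Replicate numbers carried no pairing in the labels, and libraries with the same number showed little shared deviation. Nothing states whether replicates came from separate clutches, so p-values measure the spread between these libraries, which may be technical.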

Additional observations from a re-analysis of the deposited data

Results flagged for a closer look

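In 7 V-ATPase genes the response to hypoxia differed between knockout and wild-type larvae by the test of the difference itself (limma, knockout response minus wild-type response in log2). The difference was 0.40 for atp6v0d1 and 0.27 for atp6v0cb in V0. In V1 it was 0.36 for atp6v1e1b, 0.36 for atp6v1c1a and 0.30 for atp6v1b2 (0.295 before rounding). Among accessory genes it was 0.42 for atp6ap1lb and -0.61 for atp6ap1la. The calls of atp6v0cb, atp6v1b2, atp6ap1la and atp6ap1lb were each lost when some single libraries were left out, with adjusted p of up to 0.0748, 0.0684, 0.0798 and 0.0929 in that order. Those of atp6v0d1, atp6v1e1b and atp6v1c1a were lost with quantile normalization (adjusted p = 0.0756, 0.0756 and 0.0528). With TPM scaling atp6v1c1a had adjusted p = 0.0559. For atp6v0cb it was 0.51 with quantile normalization and 0.24 with TPM scaling. Of the 7 calls 0 held under every alternative.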

How the results depend on the processing

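Counts of V-ATPase genes called in hypoxia against normoxia in knockout larvae depended most on the scaling: 9 higher became 3 with TPM and 5 scaled to total reads, and 4 lower became 10 with TPM, 9 with quantile normalization and 8 scaled to total reads. The shares of all genes called higher and lower were then 12.95% and 33.7% with TPM and 14.1% and 32.4% scaled to total reads. With quantile normalization those shares were 21.1% and 22.9%. In wild-type larvae 1 higher became 0 and 9 lower became 15 scaled to total reads, where 12.5% and 24.2% of all genes were called higher and lower. For knockout against wild type in hypoxia, 1 lower became 2 with a pseudocount of 0.1, 2 with TPM and 0 with the compared groups alone. Over all genes 3470 of 21480 were called lower with a pseudocount of 0.1, 19.7% with TPM and 2320 of 21480 with the compared groups alone. In that comparison the calls of atp6v0a1a, atp6v1g1 and atp6ap2 as higher were lost with TPM and with quantile normalization. That of atp6v0ca was lost with quantile normalization. In normoxia 0 higher became 1 with TPM, quantile normalization, scaling to total reads or the compared groups alone, and 2 with array weights. Of all genes 9.96%, 7.84% and 9.98% were called higher with TPM, quantile normalization and scaling to total reads. With the compared groups alone 2107 of 21480 genes were called higher, and with array weights 2504. For the difference of responses, 6 above 0 became 2 with TPM, 0 with quantile normalization, 3 scaled to total reads and 10 with voom, and 1 below became 0 with no filter. The share of all genes called above 0 was 1.98% with TPM, 3.06% with quantile normalization and 3.2% scaled to total reads. With voom 1399 of 21480 genes were called above 0, against 1019 in the main fit. With no filter 550 of 31402 were called below 0, against 967 of 21480 in the main fit.

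Leaving out 1 library gave 7 to 10 higher and 3 to 5 lower in knockout larvae, 1 higher and 7 to 10 lower in wild-type larvae, 10 to 13 higher and 0 to 2 lower for genotype in hypoxia, 0 to 1 higher and 1 lower for genotype in normoxia, and 3 to 10 above and 0 to 1 below for the difference. The number of all genes called for the difference moved as well, from 282 to 1506 above 0 and from 199 to 1334 below. Of 21323 to 21409 genes tested, 3984 to 4791 were called higher and 3980 to 4898 lower for hypoxia in knockout larvae. For hypoxia in wild-type larvae these were 2925 to 3613 and 3409 to 4159. For genotype they were 2751 to 3566 and 2452 to 3435 in hypoxia, and 952 to 1884 and 1058 to 2155 in normoxia. Among genes called before or after the change, directions turned for hypoxia in knockout larvae in atp6v1ba (-0.13 with TPM, -0.12 with quantile normalization), atp6v1e1b (-0.009 with quantile normalization) and atp6v1g1 (-0.13 with quantile normalization). Signs also turned with no call on either side, under at least 1 alternative, in 8 genes for hypoxia in knockout larvae, 6 in wild-type larvae, 4 for genotype in hypoxia, 9 in normoxia and 8 for the difference. The cause was not tested. Of the calls, 6 of 13 in knockout larvae, 7 of 10 in wild-type larvae, 8 of 13 for genotype in hypoxia, 1 of 1 in normoxia and 0 of 7 for the difference held under every alternative run.

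Correlations of deviations between same-numbered libraries were -0.0867 to 0.119, with a median of 0.0152, against a median of -0.00306 for differently numbered libraries. Shared deviation was thus small, and what the numbers mark is not given in the sources used here. With a replicate block the counts were 8 higher and 4 lower in knockout larvae, 1 and 9 in wild-type larvae, 12 and 1 for genotype in hypoxia, 0 and 1 in normoxia, and 5 and 1 for the difference. Over all 21480 genes they were, in that order, 4621 and 4698, 3522 and 4084, 3555 and 3376, 1637 and 1897, and 1006 and 973. The calls lost were those of atp6ap2 in knockout larvae (adjusted p = 0.0608) and atp6ap1lb for the difference (adjusted p = 0.0579). Depth limits atp6v1c2, with 4 to 12 reads, most.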
